A study of Mus musculus with 4 samples.

Results

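Chromatin regulators are the proteins that write, read and erase marks on histones and DNA, or that move nucleosomes. Their messenger RNAs are described here as targets of Ago2 in mouse B cell progenitor lines. The members are every feature of the authors' deposited table whose listed symbol begins with 1 of 30 name stems of chromatin families (Kdm, Mll, Chd, Cbx, Phf and the like). The rule uses gene names and no measured value, but it was chosen with earlier results of these data known. This gave 65 of the 2548 listed features, which belong to 40 of 1848 genes. The stems Setd, Hdac, Eed, Jmjd, Bcor, Myst, Nsd1 and Ankrd11 matched no listed feature. All 40 genes were found by Entrez ID among the RefSeq genes of GRCm38.p6, where 5 have another current symbol: Mll1 is Kmt2a, Suv420h1 is Kmt5b, Whsc1l1 is Nsd3, Phf17 is Jade1 and Phf15 is Jade2. Jhdm1d and Csrp2bp, whose current symbols there are Kdm7a and Kat14, are listed under names outside the stems and were not counted as members.

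Ago2 is the Argonaute protein that a microRNA guides to a partly complementary site, mostly in the 3' UTR of a transcript, where it lowers the transcript's stability and translation. MicroRNAs of the miR-17 cluster are known to be needed for B cell development, and Bim is one of their targets. In B cell progenitors, Polycomb complexes hold genes of other lineages silent through methylation of histone H3 lysine 27, while MLL family enzymes methylate lysine 4 at active genes.

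The cells were C57BL/6 fetal liver cells of stage E14.5, transformed with a retrovirus coding for the Abelson kinase. All 4 lines therefore carry v-Abl, and interleukin-7 was given to both genotypes during the transformation. In 2 lines the Bim gene was wild type, and the other 2 were Bim3'UTRmut/mut, homozygous for a mutated 3' UTR of this apoptosis gene (Bcl2l11). The labels call the lines of a genotype biological replicates, and whether a line is a single clone is not given in the sources used here. In PAR-CLIP, cells take up 4-thiouridine (here 500 µM for 5 hours), ultraviolet light of 365 nm links the labelled RNA to protein, and the RNA fragments that are precipitated with Ago2 are sequenced. A feature is a stretch of a transcript in which the authors counted such fragments, and its position, length and sequence were not used here. Features of a gene are numbered below by their deposited mean, highest first.

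The deposited means let the whole reads of each library be worked out for all 2548 features. The libraries are called Wa and Wb (wild type in the authors' comparison) and Ma and Mb (mutant), and lists of 4 values below keep the order Wa, Wb, Ma, Mb. The p-values rest on 2 libraries a side. Reads in listed features ranged from 14539 in Mb to 160207 in Wa, so Mb is the shallowest library and Wa the deepest. A normalized read below is a read divided by the library's size factor, is not corrected for the length of a feature, and so ranks no gene against another. A count of 0 in Mb is taken as a floor of up to 3 reads, or 6.63 normalized reads. The exact 95% interval of a 0 there is wider and reaches 8.16. Intervals for single libraries are exact 95% intervals, Poisson for reads and binomial for shares, and cover counting error only. Library Mb stands apart from the other 3. Of 18 B lineage markers 7 genes were listed, and their features together held 195.9, 218.3, 237.9 and 13.3 normalized reads. Ikzf1, Irf4, Kit, Rag1 and Il7r were at 0 in Mb, while Bach2 and Foxo1 held a few reads there. At Rag1 and Il7r the 0 says little, since their levels in the other libraries also lie under 6.63 normalized reads. Kit held 7.34, 1.84 and 12.95 in Wa, Wb and Ma, so its wild-type levels lie near or under that limit. Cd79a, Pax5 and Ebf1 were not among the listed features. Of 13 stromal, endothelial and hepatocyte markers 4 were listed (Thbs1, Vim, F3 and Pdgfra), with 4.35, 8.29, 11.3 and 501.9 normalized reads. Thbs1 and Pdgfra were at 0 in the first 3 libraries. None of 9 erythroid and myeloid markers was listed. The mutated gene itself, Bim, had 8 listed features with 88.6, 216.5, 34.0 and 103.9 normalized reads in all. The authors' deposited table gave all 8 a log2 ratio below 0, none with an adjusted p under 0.561, and the summed levels of the genotypes overlapped. Each result below in which Mb differs from the other libraries moves with these values, and their part in it was not tested. In bulk libraries, fewer cells of a type and less RNA per cell cannot be told apart, and since no RNA levels were used here, neither can Ago2 occupancy and transcript amount.

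No chromatin regulator feature differed between the genotypes at an adjusted p of 0.05. With p-values adjusted over all features by the Benjamini-Hochberg method, the authors' deposited table held 0 of 65 members with an adjusted p under 0.05, against 0% of all features, and the smallest adjusted p among members was 0.561. Before adjustment 3 members had a p under 0.05 in the authors' deposited table, where 8.48% of all features do. Of these, 2 were higher, Cbx5 feature 1 among them, where 7.57% of all features are higher at that level, and 1, Suz12, was lower, where 0.903% are lower. limma's voom on the recovered reads likewise gave 0 members with an adjusted p under 0.05, against 0% of all features. Its unadjusted p was under 0.05 for 2 higher members, Cbx5 feature 1 among them (2.94% of all features), and for no lower member (0.157%). Without Mb, voom had 1 higher member (1.57% of all features), Cbx5 feature 1, on 2, 2 and 3 reads in the libraries left, and no lower one (0.196%). The share of members with a log2 ratio below 0 was 53.8% (35 of 65) in the authors' deposited table, near the 52.5% of all features. Their median there was -0.26, against -0.07 over all features. With only feature 1 of each gene, the median was -0.08 for members and -0.08 over all genes. The sign of the member median depended on the method: by voom it was 0.01 with all libraries and 0.23 without Mb. Over all features the voom medians were 0.05 and 0.15.

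**Figure D1:**
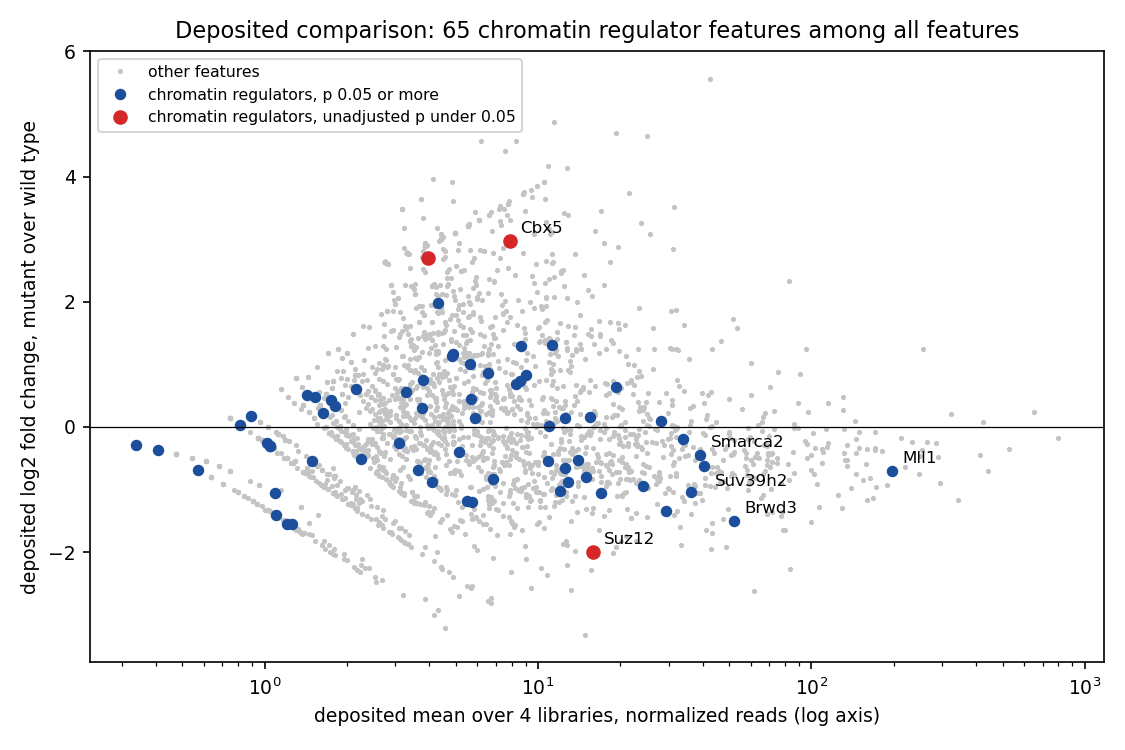
Deposited log2 fold change, mutant against wild type (vertical axis), against the deposited mean over the 4 libraries in normalized reads (horizontal log axis) for every listed feature. Members (large points) run from -2.00 to 2.97 within the cloud of other features (grey), and the 3 in red, Cbx5 and Suz12 among them, have an unadjusted p under 0.05.

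Only some members had enough reads on both sides for a difference to be seen. Every listed feature reached 5 reads in at least 1 library. Among the members 32 reached 5 reads on both sides (40.6% of all features do), 31 on the wild-type side only (47.8%) and 2, Cbx5 feature 1 among them, on the mutant side only (11.5%). Both of these reached it in Mb only (11.3%), and 26 members reached it in Wa only (33.3%). Reaching 5 reads on 1 side only depends on depth as well as on level, so such a feature need not differ. In the authors' deposited table these members lay on both sides of 0, as Suz12 (-2.00) and Ncoa3 feature 3 (0.74) show. Their direction is tied to how they came to be listed and is given as a description only. Among the members reaching 5 reads on the wild-type side only are also both features of Kdm2a, both of Cbx7 and feature 1 of Ncoa3. Under 5 reads were held by 2, 37, 38 and 45 members in the 4 libraries. No read was held by 1, 8, 12 and 18 members, where 7.1%, 18.1%, 23.7% and 25.2% of all features had none.

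Among the subunits of Polycomb repressive complex 2, which methylates histone H3 at lysine 27, Suz12 had the lowest log2 fold change of all members. SUZ12 is the core subunit that the catalytic subunits EZH1 and EZH2 need for activity. Its feature held 69, 37, 4 and 2 reads, which is 18.8, 34.1, 6.47 and 4.42 normalized reads. Suz12 is listed through the wild-type side only, so its values are a description and the direction supports nothing. Both mutant-side libraries lay below both wild-type ones, with the intervals of Ma (1.76 to 16.6) and Wa (14.6 to 23.7) overlapping slightly. Wa and Wb themselves differed beyond counting error. The authors' deposited table gave a log2 ratio of -2.00 (unadjusted p = 0.032). The standard error (SE, 0.93), the 95% interval (-3.83 to -0.17) and the adjusted p (0.561) were computed here from the deposited values, as for all members below. By voom the log2 ratio was -2.03 (unadjusted p = 0.0597). It was -1.75 without Mb (unadjusted p = 0.0918), and it was -2.43 without Wa (unadjusted p = 0.216). Jarid2, which recruits the complex and tunes its activity, had -0.53 at feature 1 and -0.87 at feature 2 in the authors' deposited table. Its feature 1 held 15.2, 18.4, 11.3 and 11.1 normalized reads. Ezh1, the catalytic subunit of non-dividing cells, had 0.14 and 0.61 in the authors' deposited table on means of 5.88 and 2.16 normalized reads. Phf1, a Polycomb-like accessory subunit, had 0.22 on a mean of 1.64, by the authors' deposited table.

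The chromobox proteins of Polycomb repressive complex 1, which bind methylated lysine 27, ranged widely in how many reads they held. Cbx6 had levels in Mb that were not low. Its feature 1 held 21.7, 50.7, 16.2 and 46.4 normalized reads, and the authors' deposited table gave it a log2 ratio of -0.19 (SE 0.86). Feature 2 of Cbx6 held 2.99 and 9.21 normalized reads on the wild-type side and 12.9 and 19.9 on the mutant side. It was higher in both mutant-side libraries, with 1.31 in the authors' deposited table (SE 0.97, unadjusted p = 0.178). Cbx2 had 0.45 on a mean of 5.68, and the 2 features of Cbx7 had -1.41 and -1.06 in the authors' deposited table on means near 1.10 normalized reads, with no read on the mutant side. A 0 there says little, since the wild-type levels of Cbx7 lie under what a count of 0 in Mb allows.

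Asxl2, a partner of the deubiquitinase BAP1 that removes the Polycomb mark from histone H2A, had both features below 0. Its feature 1 held 28.8 and 18.4 normalized reads on the wild-type side against 16.2 in Ma and 4.42 in Mb. The authors' deposited table gave a log2 ratio of -1.05 (SE 0.91, unadjusted p = 0.251). Over the 16 Polycomb features of 9 genes, 11 lay below 0 and 5 above in the authors' deposited table, where 52.5% of all features lay below 0. The median of the 16 was -0.83 against -0.07 for all features, and 0 passed an adjusted p of 0.05. Several of the 16 are listed through the wild-type side only. They include Suz12, both Cbx7 features and Asxl2 feature 2 below 0, and Cbx2, Ezh1 feature 2 and Phf1 above 0. The direction of such features is tied to how they came to be listed, so the count and median are a description only. Without Mb the voom median of the group was -0.26. In Mb 6 of the 16 had no read, where 25.2% of all features had none. At both Cbx7 features and Asxl2 feature 2 this says little, since their wild-type levels lie under 6.63 normalized reads.

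Cbx5 encodes HP1 alpha, which binds methylated lysine 9 of histone H3 in heterochromatin, and its feature 1 had the highest log2 fold change of all members. It held 2, 2, 3 and 11 reads, or 0.544, 1.84, 4.86 and 24.3 normalized reads. This feature is listed through Mb only, and its direction is likewise a description. Mb stood above both wild-type libraries beyond counting error, while the interval of Ma, from 1.00 to 14.2, overlapped both. The authors' deposited table gave a log2 ratio of 2.97 (SE 1.20, 95% interval 0.62 to 5.32, unadjusted p = 0.0133, adjusted p = 0.561). The voom value was 3.57, and without Mb it was 2.67 (unadjusted p = 0.0434). Without Wa it was 2.32 (unadjusted p = 0.248). Cbx5 feature 2 held 4.08, 4.61, 6.47 and 11.1 normalized reads, with 0.86 in the authors' deposited table (SE 1.04). Feature 1 took 11.8%, 28.6%, 42.9% and 68.8% of the Cbx5 reads. The interval of Mb (41.3% to 89%) lay above that of Wa (1.46% to 36.4%). It overlapped those of Wb (3.67% to 71%) and Ma (9.9% to 81.6%). Since feature 1 is listed through its reads in Mb, these shares are a description only.

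Histone methyltransferases held more of the members' reads than any other role in Wa, Wb and Ma (49.5%, 36.9% and 49.1%), and 14.3% in Mb. Mll1, which methylates lysine 4 of histone H3 and keeps Hox genes active in blood cells, had the member feature with the most reads. Mll1 feature 1 held 1125, 217, 167 and 5 reads, or 305.7, 199.9, 270.3 and 11.1 normalized reads. The role as a whole held 1943, 341, 269 and 29 reads. Most of its reads in Wa, Wb and Ma were thus at this feature, and its place among the roles rests largely on it. Ma lay between the wild-type libraries, and Mb, with an interval of 3.59 to 25.8, lay far under the other 3. The authors' deposited table gave a log2 ratio of -0.70 (SE 1.11, unadjusted p = 0.527). Without Mb the voom value was 0.10 (unadjusted p = 0.875), and without Ma it was -4.37 (voom adjusted p = 0.0349). In that fit, in which Mb alone stands for the mutant and is assumed to vary like the wild-type pair, 14.3% of all features passed an adjusted p of 0.05, and 3 members did, Mll1 feature 1 and Cbx5 feature 1 among them. At an unadjusted p under 0.05 it held 4 members higher (18.6% of all features) and 3 lower (4.55%).

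Of the other Mll1 features, feature 2 was also lowest in Mb, while feature 3 was highest there. The log2 ratio of Mb to the wild-type mean was -1.87 at feature 2, against -4.45 at feature 1. Feature 2 held 53.8, 46.1, 32.4 and 13.3 normalized reads, with both mutant-side libraries below both wild-type ones. The authors' deposited table gave it a log2 ratio of -1.03 (SE 0.77, unadjusted p = 0.18). Feature 3 held 2.45 and 2.76 on the wild-type side and 3.24 and 11.1 on the mutant side, with 1.17 in the authors' deposited table (SE 1.16). Feature 1 thus made up 84.5% of the Mll1 reads in Wa (interval 82.4% to 86.4%), 80.4% in Wb (75.1% to 84.9%) and 88.4% in Ma (82.9% to 92.6%), but 31.2% of 16 reads in Mb (11% to 58.7%). Feature 3 made up 0.676%, 1.11% and 1.06% in the first 3 libraries and 31.2% in Mb. Shares within a gene do not depend on the library's scaling. Over all genes, 237 had several features and at least 5 reads in every library. In 50.2% of them the share of feature 1 was lowest in Mb, so the direction seen at Mll1 was common. Feature 1 is chosen by its mean over these same libraries, so a library unlike the others can tend to a low share there. The 50.2% is therefore a description only. Of the 7 member genes among the 237, Mll1 alone had this order.

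**Figure D2:**
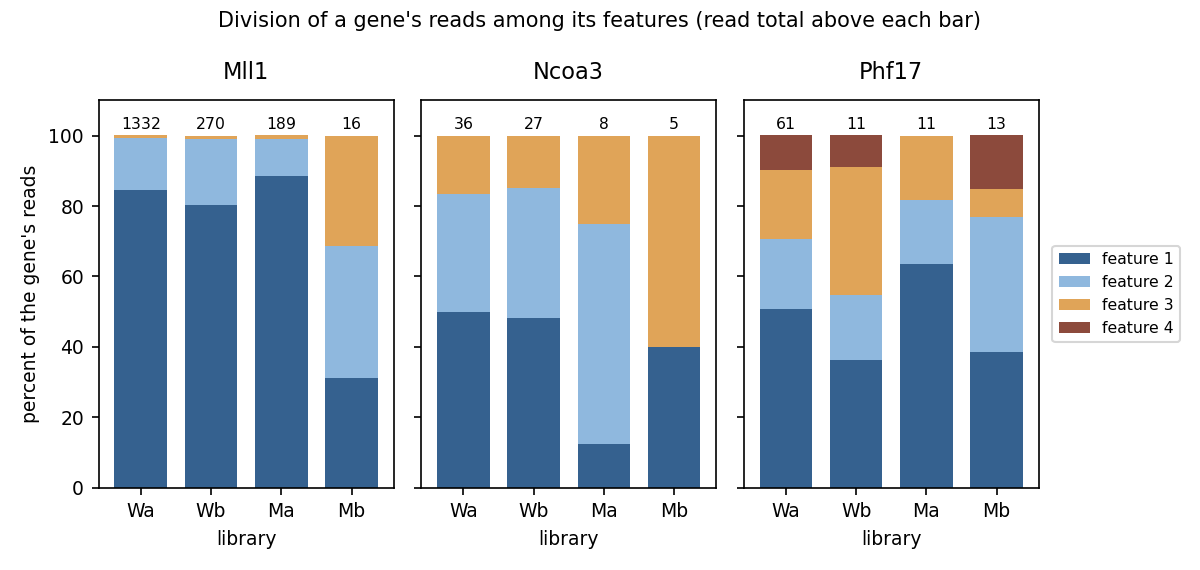
Percent of a gene's reads that fell in each of its features (vertical axis), by library, for Mll1, Ncoa3 and Phf17, which have 3 or more features each. The number above each bar is the gene's reads in that library. Feature 1 of Mll1 takes over 80% of the reads in Wa, Wb and Ma and 31.2% in Mb.

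Suv39h2 and Whsc1l1 feature 1 were, like Mll1 feature 1, lowest in Mb. Suv39h2, which sets the trimethyl mark on lysine 9 that HP1 binds, held 252, 36, 36 and 1 reads. Normalized, this is 68.5, 33.2, 58.3 and 2.21, so Ma lay between the wild-type libraries and Mb under all of them. The authors' deposited table gave it a log2 ratio of -0.62 (SE 1.12), and the voom value without Mb was 0.24. Whsc1l1 feature 1, of a lysine 36 methyltransferase, held 60.9, 6.45, 27.5 and 2.21 normalized reads. The difference between its wild-type libraries exceeded that between the genotypes, and the authors' deposited table gave a log2 ratio of -0.95 (SE 1.18). Ash1l feature 1, of another lysine 36 methyltransferase, had 0.14 in the authors' deposited table with 19.8 and 3.69 normalized reads on the wild-type side and 24.3 and 2.21 on the mutant side. Each genotype held 1 high and 1 low library there. Suv420h1, which methylates histone H4 at lysine 20, was even: feature 1 held 10.9, 18.4, 12.9 and 19.9 normalized reads, with 0.16 in the authors' deposited table (SE 0.83). The 10 features of these 5 genes were divided 5 above and 5 below 0, and 0 passed an adjusted p of 0.05. Together they took 1.21%, 0.879%, 1.09% and 0.199% of the reads of the 4 libraries, the last with an interval of 0.134% to 0.286%.

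Among readers of acetylated and methylated histones, Brwd3 and Phf13 lay on opposite sides of 0. Brwd3, a bromodomain and WD-repeat protein, held 315, 78, 23 and 6 reads, or 85.6, 71.9, 37.2 and 13.3 normalized reads. It was the only member at which the interval of Ma (23.6 to 55.9) lay wholly under both wild-type intervals, as 0.785% of all features show, and at no member did it lie over both (0.981%). Mb lay lower still. The authors' deposited table gave a log2 ratio of -1.50 (SE 0.78, 95% interval -3.04 to 0.03, unadjusted p = 0.055, adjusted p = 0.563), and the voom value was -1.73 with Mb and -1.06 without it (unadjusted p = 0.189). Phf13, which binds the methylated lysine 4 mark, had 1.29 in the authors' deposited table (SE 1.16), with 7.34 and 0.921 normalized reads on the wild-type side and 6.47 and 19.9 on the mutant side.

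Among the nucleosome remodellers and the Sin3 group, Smarca2 and Phf12 held similar levels in all 4 libraries. Smarca2, an ATPase of the SWI/SNF complex, held 47.6, 43.3, 32.4 and 33.2 normalized reads. The mutant-side libraries were slightly lower, and the authors' deposited table gave a log2 ratio of -0.45 (SE 0.67, 95% interval -1.76 to 0.86), the smallest SE of any member. Smarcd2, an accessory SWI/SNF subunit, had 0.65 (SE 0.99) in the authors' deposited table, with a high and a low library in each genotype (23.1 and 5.53 against 37.2 and 11.1). Chd9, a CHD family remodeller, held 11.4 and 22.1 normalized reads on the wild-type side and 8.09 and 6.63 on the mutant side, with -1.03 in the authors' deposited table (SE 0.94). Phf12, a PHD protein of a Sin3 deacetylase complex, held 23.4, 31.3, 35.6 and 22.1, with 0.09 in the authors' deposited table (95% interval -1.33 to 1.52). Sin3b, a scaffold for histone deacetylases, had 0.02 at feature 1 and -0.55 at feature 2 in the authors' deposited table. As a share of each library, the 5 remodeller features took 0.198%, 0.206%, 0.203% and 0.186%. Mb did not stand apart in this summed share.

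Acetyltransferases and coactivators had low counts and were divided 6 above and 7 below 0 over 13 features. Ncoa2, a coactivator of nuclear receptors, held 5, 1, 1 and 6 reads, with 1.98 in the authors' deposited table (SE 1.29, unadjusted p = 0.125). Only Mb was high, at 13.3 normalized reads, and the voom value without it was 0.73. The 3 features of its relative Ncoa3 had -1.20, -0.40 and 0.74 in the authors' deposited table, each with an SE of at least 1.20. Phf17, a scaffold of the HBO1 acetyltransferase complex, has the most features of any member, 4, with 0.73, 1.14, -0.25 and 0.43 in the authors' deposited table. Its feature 1 held 8.42, 3.69, 11.3 and 11.1 normalized reads, with both mutant-side libraries above both wild-type ones. Ing5, a PHD subunit of the same complex, had 0.68 at feature 1 in the authors' deposited table (SE 1.05). The group took 0.0986%, 0.119%, 0.106% and 0.213% of the reads of Wa, Wb, Ma and Mb, and here Mb was the highest. Its interval (0.145% to 0.303%) lay above that of Wa (0.0838% to 0.115%). It overlapped slightly those of Wb (0.0868% to 0.158%) and Ma (0.069% to 0.155%).

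Erasers of histone and DNA methylation were few. Kdm6b, a demethylase of the Polycomb mark, held 7.61 and 4.61 normalized reads on the wild-type side and 12.9 and 11.1 on the mutant side. The groups did not overlap, but the authors' deposited table gave a log2 ratio of 0.84 with an SE of 0.95. Kdm2a, a demethylase of lysine 36 that binds CpG islands, had lower values on the mutant side at both features, which are listed through the wild-type side only. Its feature 1 held 8.97 and 9.21 against 4.86 and 4.42 normalized reads and its feature 2 held 9.51 and 6.45 against 1.62 and 4.42. Their values in the authors' deposited table were -0.82 (SE 1.06) and -1.19 (SE 1.18). Tet2, which oxidises 5-methylcytosine, held 11.1, 21.2 and 17.8 normalized reads at feature 1 in Wa, Wb and Ma and 0 in Mb, where the interval reaches 8.16. The authors' deposited table gave it a log2 ratio of -0.65 (SE 1.19), and the voom value without Mb was 0.33. Tet3 had 1.00 (SE 1.12) and the DNA methyltransferase gene Dnmt3a 0.30 (SE 1.37) in the authors' deposited table, on means of 5.65 and 3.76. Arid3a, a DNA-binding protein first described as an activator of the immunoglobulin heavy chain gene in B cells, had 9 and 6 reads in Wa at its features and at most 1 in any other library.

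**Figure D3:**
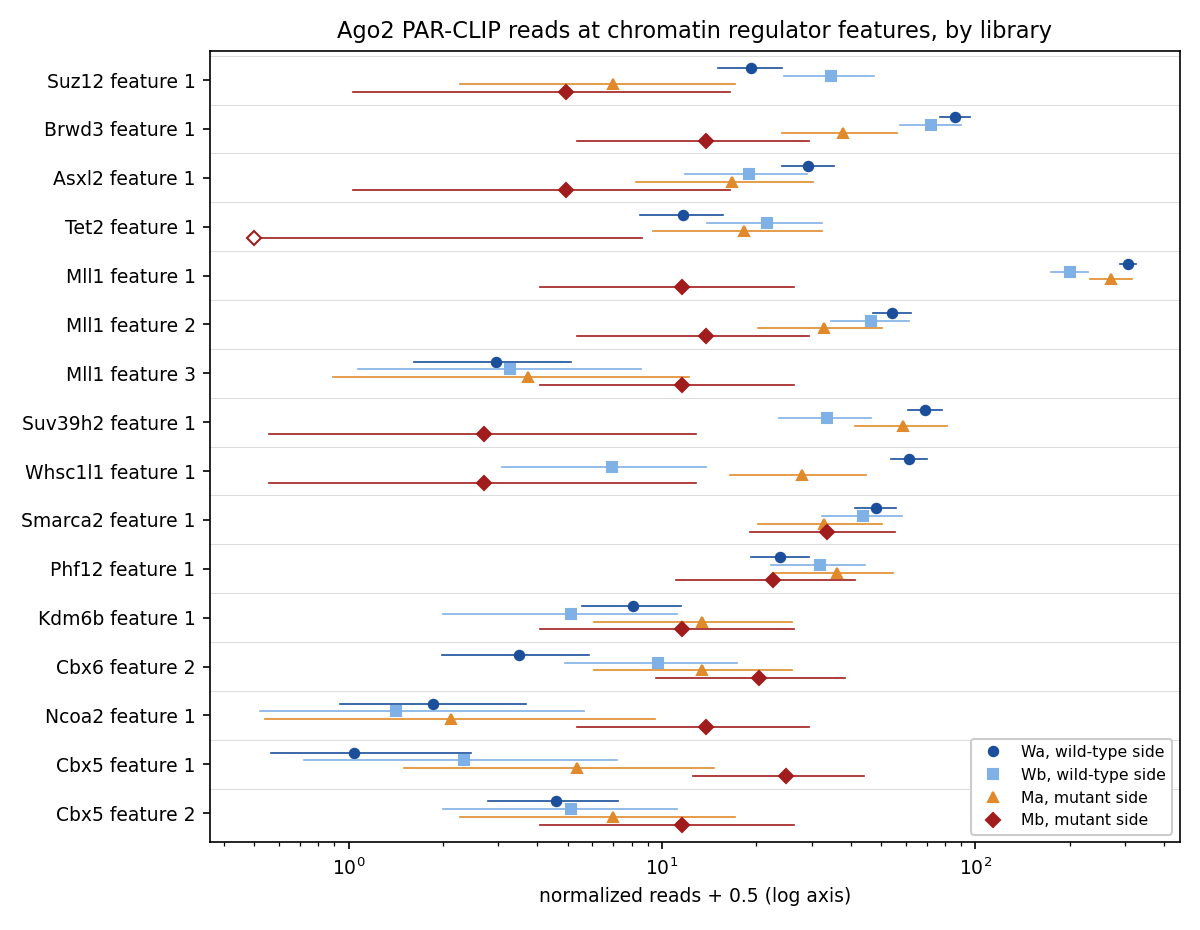
Normalized reads plus 0.5 (log axis) at 16 member features in the libraries Wa and Wb (blue, wild-type side) and Ma and Mb (orange and red, mutant side). Lines are exact 95% Poisson intervals of the reads, and open symbols are counts of 0. Mb lies far left of the other libraries at Mll1 feature 1 and Suv39h2, both mutant-side libraries lie left at Suz12 and Brwd3, and Mb lies right at Cbx5 feature 1.

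Across members, Mb was the library least like the others. Both mutant-side libraries were above both wild-type ones at 11 members (16.9%, against 13.1% of all features) and below both at 17 (26.2%, against 20.1%). Taken alone, Ma was above both wild-type libraries at 17 members and below both at 23, where 27.9% and 36.3% of all features are. Mb was above both at 24 and below both at 32, where 40.4% and 41.7% of all features are. Across the 65 member features, which share libraries and are no replicates, the log2 levels of Wa correlated with those of Wb at 0.80 and of Ma at 0.82, and those of Wb with Ma at 0.77. Mb correlated at 0.28 with Wa, 0.37 with Wb and 0.42 with Ma. Over all features these were 0.14, 0.26 and 0.22. The interval of Mb lay under those of all other libraries at 3 members, Mll1 feature 1 and Suv39h2 among them (4.62%, against 5.49% of all features). At no member did it lie over all others, where 8.91% of all features show this. Wa and Wb were apart beyond counting error at 10 members (15.4%, against 14.9% of all features), and Ma and Mb at 7 (10.8%, against 18.7%).

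Member features together took 2.45% of the reads of Wa (interval 2.38% to 2.53%), 2.38% of Wb (2.23% to 2.54%) and 2.23% of Ma (2.04% to 2.42%), but 1.40% of Mb (1.21% to 1.60%). Most of that gap was Mll1 feature 1. Without it the shares were 1.75%, 1.82% and 1.55% against 1.36% in Mb (1.18% to 1.56%), so that Ma and Mb overlapped.

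**Figure D4:**
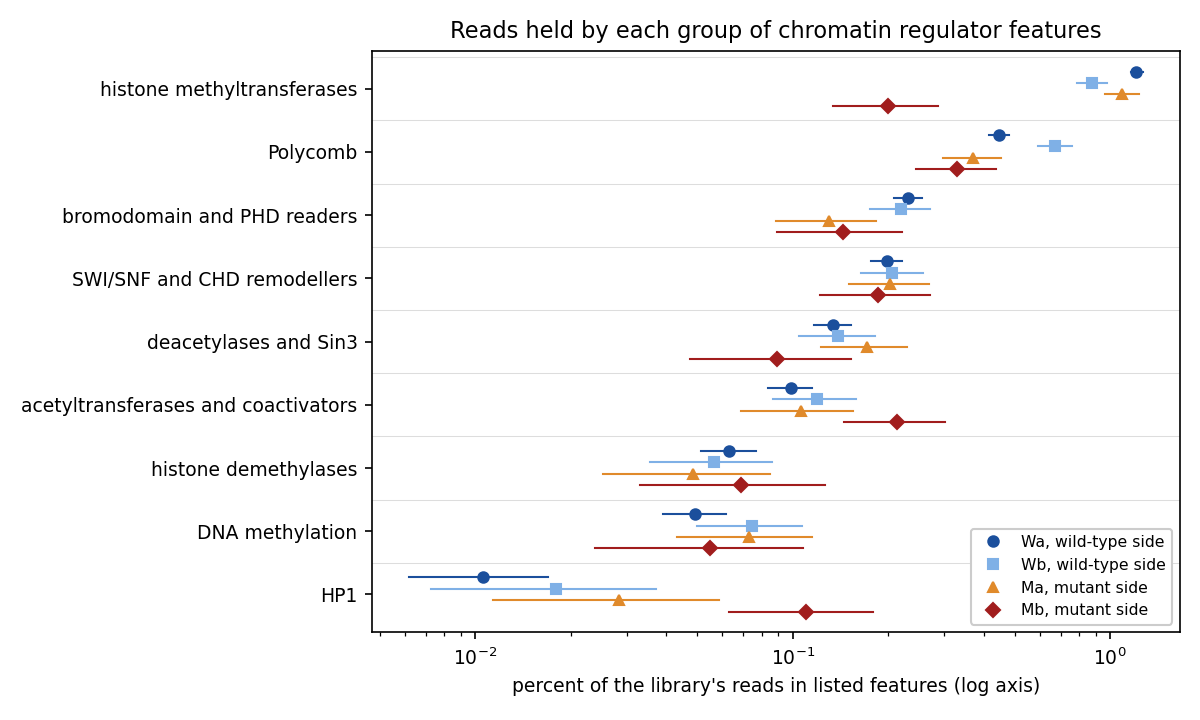
Percent of a library's reads in listed features (log axis) that fell in each group of members, for the 4 libraries, with exact 95% binomial intervals. Histone methyltransferases take 0.199% in Mb against 0.879% or more in the others, remodellers take about the same share in all 4, and HP1 (the 2 Cbx5 features) takes most in Mb, at 0.11%.

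Other chromatin genes, whose names lie outside the stems, were set beside the members from a list of 145 symbols. Of these 36 genes were listed, with 49 features, 18 above and 31 below 0 in the authors' deposited table and a median of -0.15, and 0 passed an adjusted p of 0.05. The genes with the highest means were Baz2a, Mbd1 and Rest. Baz2a, a subunit of a complex that silences ribosomal genes, resembled Mll1 feature 1, with 194.8, 129.9, 181.3 and 35.4 normalized reads. Mbd1, which binds methylated CpG, held 65.5, 65.4, 56.6 and 17.7 at feature 1. Rest, a repressor of neuronal genes, was highest in Mb at feature 1, with 30.4, 55.3, 22.7 and 64.1. Of the 49 features, 3 were higher with an unadjusted p under 0.05, Mtf2, Hmga2 and Wapal in the authors' deposited table, and 1 was lower, Trim33 feature 2, where 7.57% and 0.903% of all features are. They are named here after their values were seen. Mtf2 is a Polycomb-like partner of SUZ12 and had the opposite sign, with 2.60 in the authors' deposited table (SE 1.16, unadjusted p = 0.025). Its 14 reads in Mb, against 10, 1 and 3 in the others, made it the highest library. The part of the marker shift of Mb in these values was not tested. All reads of Hmga2 (7) and Wapal (6) were in Mb.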

How the data were processed

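Ago2 PAR-CLIP was done on 2 wild-type and 2 Bim3'UTRmut/mut lines. CASAVA 1.8.2, BWA 0.7.12-r1039, DESeq2 and the builds mm9 and NCBIM37 are named, without their roles, per the submitters' processing notes. How features were defined and filtered, and whether PCR copies were removed, is not given in the sources used here. The table holds, per the file headers, a mean normalized signal, a log2 fold change (mutant over wild type, per the table's name) and an unadjusted p-value, all computed by the authors. Gene names come from the table and can be old. Adjusted p-values, standard errors and 95% intervals are not among the deposited values and were computed here from them. Adjusted p-values are Benjamini-Hochberg over all 2548 features, and standard errors and 95% intervals assume a Wald test.

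Whole reads were recovered by writing every mean as library weights times whole numbers. The weights came from differences between low means. A single solution was found for 100.0% of 2548 features (misfit up to 5.12e-13). Of 2165 means shifted slightly, 0 had a solution. This gave size factors of 3.68, 1.086, 0.618 and 0.452 (Wa, Wb, Ma, Mb). The sides follow the pairing of libraries whose direction matched the authors' sign at 98.8% of features, against 67.4% and 32.4% for the other pairings. Replicate numbers cannot be assigned to them. Recovered reads were fitted with voom (limma 3.58.1, R 4.3.3) on those size factors.

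The members, the gene lists and the naming rule were chosen with earlier results of these data known. The rule names members with an unadjusted p under 0.05, the 5 smallest p in each direction, the 10 highest means, genes with 3 or more features and the 3 highest means of each role. This named 40 features, some of which are not reported here. Others in the text were chosen after their values were seen. Per library, log ratios used 0.5 added to normalized reads.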

Additional observations from a re-analysis of the deposited data

How the results depend on the processing

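No member passed an adjusted p of 0.05 in the deposited table, at a threshold of 0.10, with an empirical null, over features at or above the median mean of 4.85, or with voom. The count of members higher at an unadjusted p under 0.05 was 2. It was 0 at a p of 0.01, 1 over features at or above the median mean, and 0 to 4 when voom left out each library in turn (0 without Wa, 1 without Wb, 4 without Ma and 1 without Mb). The count lower was 1. It was 0 at a p of 0.01, 0 with voom, and 0 to 3 when a library was left out (3 without Ma, 0 otherwise). The median log2 fold change, -0.26 as deposited, was -0.08 with 1 feature per gene and -0.43 over features at or above the median mean. With voom it was 0.01, and it ran from -0.37 (without Ma) to 0.31 (without Wa) when a library was left out. The cause of these changes was not tested. Member shares of library reads stayed within their intervals over features at or above the median mean. Of 40 named features, 37 kept their deposited sign with voom and 29 without Mb. Fits that leave out a library assume that the lone library of its genotype varies like the other pair. No paired analysis was possible because the recovered libraries carry no replicate number. With 2 libraries a side and a median of 2.0 reads per member in Mb, depth limits most members.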
